A study of Homo sapiens with 6 samples.

Results

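The genes described are 45 regulators of pre-mRNA splicing, chosen by gene symbol from the 29845 genes with a row in the deposited table of read counts: 18 hnRNPs, 12 SR proteins including the related TRA2A and TRA2B, and 15 other regulators. They were measured by RNA-seq of polyadenylated RNA in A549 cells, an established human lung epithelial cancer line. The study made the libraries to explore how TFAM, the mitochondrial transcription factor A, may act in asthma. The question asked here is whether overexpression of TFAM goes with a change in the regulators themselves. The control group is 3 cultures transfected with the empty pIRES-hrGFP-1a plasmid. The TFAM-OE group is 3 cultures transfected with the same lipid reagent and the plasmid carrying TFAM joined to a FLAG tag at its 3′ end. The expression was transient, the comparison rests on a single line, and there is no time course.

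SR proteins carry a domain rich in arginine and serine and, bound to exons, mostly favour the use of nearby splice sites. hnRNPs coat nascent transcripts and often act against SR proteins by silencing exons, while other factors mark the branch point and the 3′ splice site or switch exons in a particular tissue. Many of these genes limit their own output by splicing a poison exon into their transcripts, which are then destroyed by nonsense-mediated decay, so the level of a regulator and its splicing are linked.

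Transcripts of 3 hnRNPs (HNRNPH1, HNRNPF and HNRNPR) were taken to RT-qPCR in the study with primers that span a splice junction. The study reports that this assay matched its splicing result from RNA-seq for HNRNPH1, but not for HNRNPF and HNRNPR. The primer sequences show which part of each gene the assay read. Each pair below shares 1 exon, and the bases in capitals lie in the part that sets the alternative (AS) product apart from the model (M) product.

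HNRNPH1 AS: AGTGGATACGgtaaccaagg

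HNRNPH1 M: CATTGCATAGgtaaccaagg

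HNRNPF AS: GGAGGCCGAGgttgagaaca

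HNRNPF M: CCCTGGCGTGgttgagaaca

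HNRNPR AS: ctctgccctgCAGcataata

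HNRNPR M: ctctgccctgcataataaaa

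In GRCh38, on the minus strand, the HNRNPH1 primers join chr5:179616126-179616135 (AS) or chr5:179615546-179615555 (M) to chr5:179614950-179614959. Both exon parts of the AS primer lay wholly in coding segments in the 2 coding GENCODE transcripts that hold its junction. Neither exon part of the M primer lay wholly in a coding segment in any of the 15 coding transcripts that hold its junction. A part with only some coding bases was not counted as coding. The HNRNPF primers join chr10:43408727-43408736 (AS) or chr10:43397185-43397194 (M) to chr10:43396581-43396590, and none of these parts lay wholly in a coding segment. The HNRNPR primers share chr1:23344211-23344220 and go on at chr1:23341011-23341020 (AS) or chr1:23341008-23341017 (M), 3′ splice sites 3 bases apart. Again, no part of these primers lay wholly in a coding segment. A read count per gene adds both products of each pair together, so the levels below do not measure these junctions.

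The 6 libraries held between 26650854 and 37321956 counted reads. TFAM itself, the check of the labels, was counted at 2555, 1878 and 2663 reads in control libraries and at 2291, 2808 and 2492 in the labelled TFAM-OE libraries, a 1.06-fold difference (95% interval 0.914 to 1.23, adjusted p = 0.623), so total TFAM mRNA did not differ by the test and the group is called by its label throughout. The study checked the FLAG-tagged protein by western blot, which is not analysed here. Keratins KRT7, KRT8, KRT18 and KRT19 were abundant in every library, whereas the epithelial markers EPCAM, CDH1 and CLDN4 averaged under 1 FPKM (fragments scaled by transcript length and library size). None of the 7 epithelial markers passed the test. Summed leukocyte markers were at 3.13 CPM or more (CPM, reads scaled by library size) in each control library. They were at 1.82 CPM or less in each labelled TFAM-OE library. CD68, the 1 of these 5 markers with enough reads to be tested, was lower (log2 fold change −1.21, adjusted p = 0.0152), and PTPRC was at 0 or 1 read. A change in 1 such gene does not show a change in the kinds of cells present. Fibroblast markers summed to at least 5.08 CPM in each control library and to less in each labelled TFAM-OE library (3.04 CPM at the lowest), and endothelial markers to at most 0.506 CPM. All 20 interferon-stimulated genes of a fixed list were lower in the labelled TFAM-OE libraries (median log2 fold change −2.84). The part of these differences in the values below was not tested.

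Of the 45 splicing regulators, 43 had enough reads to be tested by edgeR's quasi-likelihood test with Benjamini-Hochberg adjustment over 16555 genes. A single regulator, PTBP2, was lower in the labelled TFAM-OE libraries at an adjusted p under 0.05, in a comparison where 4.81% of all tested genes were lower. No regulator was higher, where 3.48% of all tested genes were. These shares of all genes themselves moved when 1 library was left out, from 1.42% lower and 0.391% higher without control 2 to 10.5% and 8.43% without TFAM-OE 3. Among the regulators, 3 passed an unadjusted p under 0.05 (PTBP2, HNRNPAB and SRSF6). No regulator changed by 2-fold or more, against 2.51% of all tested genes in either direction. The 43 log2 fold changes ran from −0.54 to 0.30 with a median of 0.06, and 30 were above 0. The 95% interval of every tested regulator lay within a 2-fold change, and 39 of the 43 intervals lay within a 1.5-fold change. In these bulk cultures, a lower level in each cell and fewer cells with the transcript cannot be told apart.

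**Figure D1:**
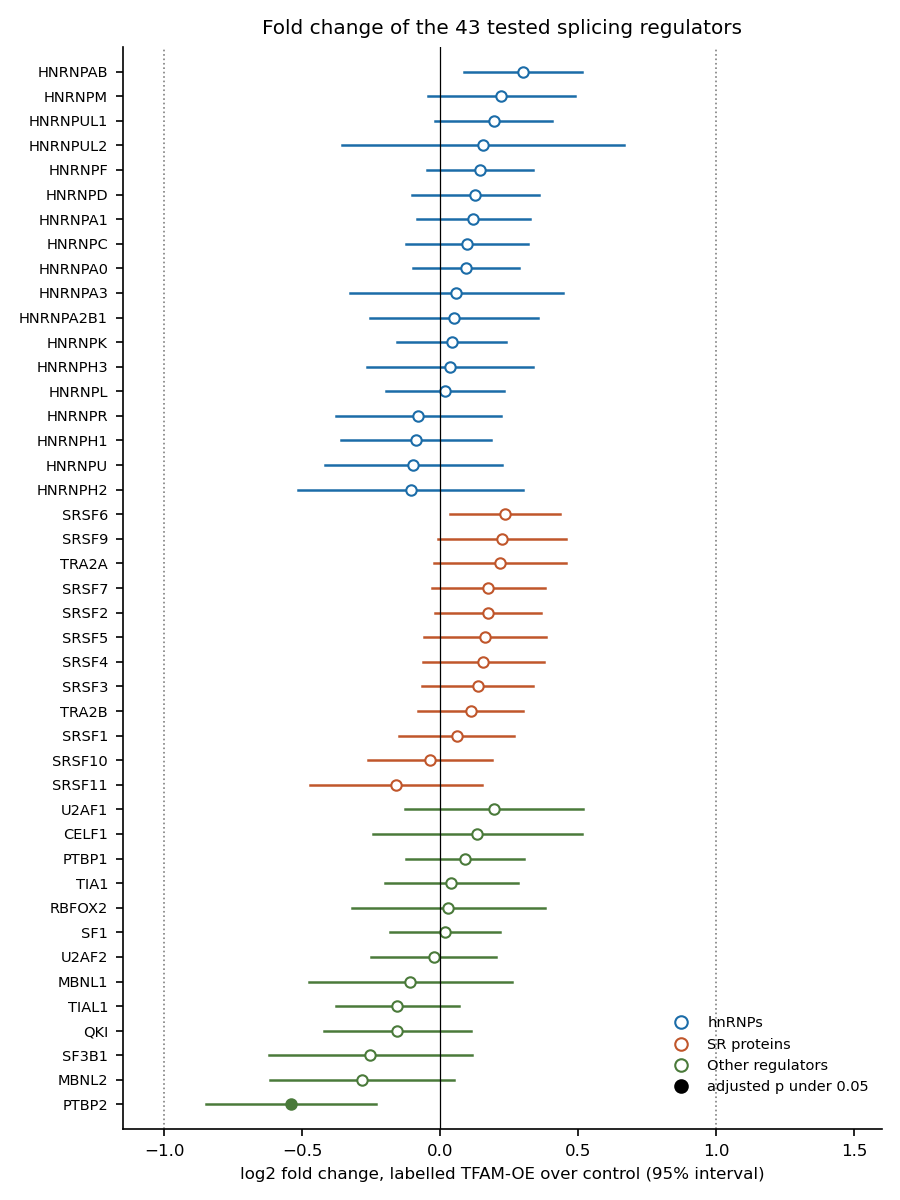
Log2 fold change of the 43 tested regulators, labelled TFAM-OE libraries over control (3 and 3 libraries), with 95% intervals from the edgeR fit. PTBP2 (filled, −0.54) is the single gene past an adjusted p of 0.05, and no interval reaches a 2-fold change (dotted lines).

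A weaker measure, whether the 3 libraries of a group all lay beyond the 3 of the other in CPM scaled by TMM (a factor per library that evens out composition), held for 13 regulators. The groups did not overlap and the labelled TFAM-OE libraries were higher for 12 of the 43, where 15.8% of all tested genes did the same. They were lower for 1 of the 43, PTBP2, where 15.8% of all tested genes were. The 12 were 7 SR proteins and 5 hnRNPs, and none passed the adjusted test. With RLE factors in place of TMM, 12 of the 43 were higher without overlap (27.9%, beside 16.3% of all genes tested). With upper-quartile factors 13 were (30.2%, beside 16%). With library size alone, 6 of the 43 were higher without overlap (14.0%, beside 16%), the hnRNPs among them falling from 5 to 1. The share above the background thus held with each of these factors but not with library size alone.

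The hnRNPs were the most abundant class. Levels per length in the control averaged from 4.4 FPKM for HNRNPUL2 to 219.9 FPKM for HNRNPK, a KH-domain protein that binds C-rich RNA. HNRNPK was at 226, 214 and 219.8 FPKM in the control and at 215, 219 and 235 FPKM in the labelled TFAM-OE libraries, so the groups overlapped (log2 fold change 0.04, SE 0.0881). After HNRNPK came HNRNPA2B1, HNRNPAB and HNRNPA1, each with a control mean between 154 and 158 FPKM. The control libraries of these 3 genes overlapped.

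**Figure D2:**
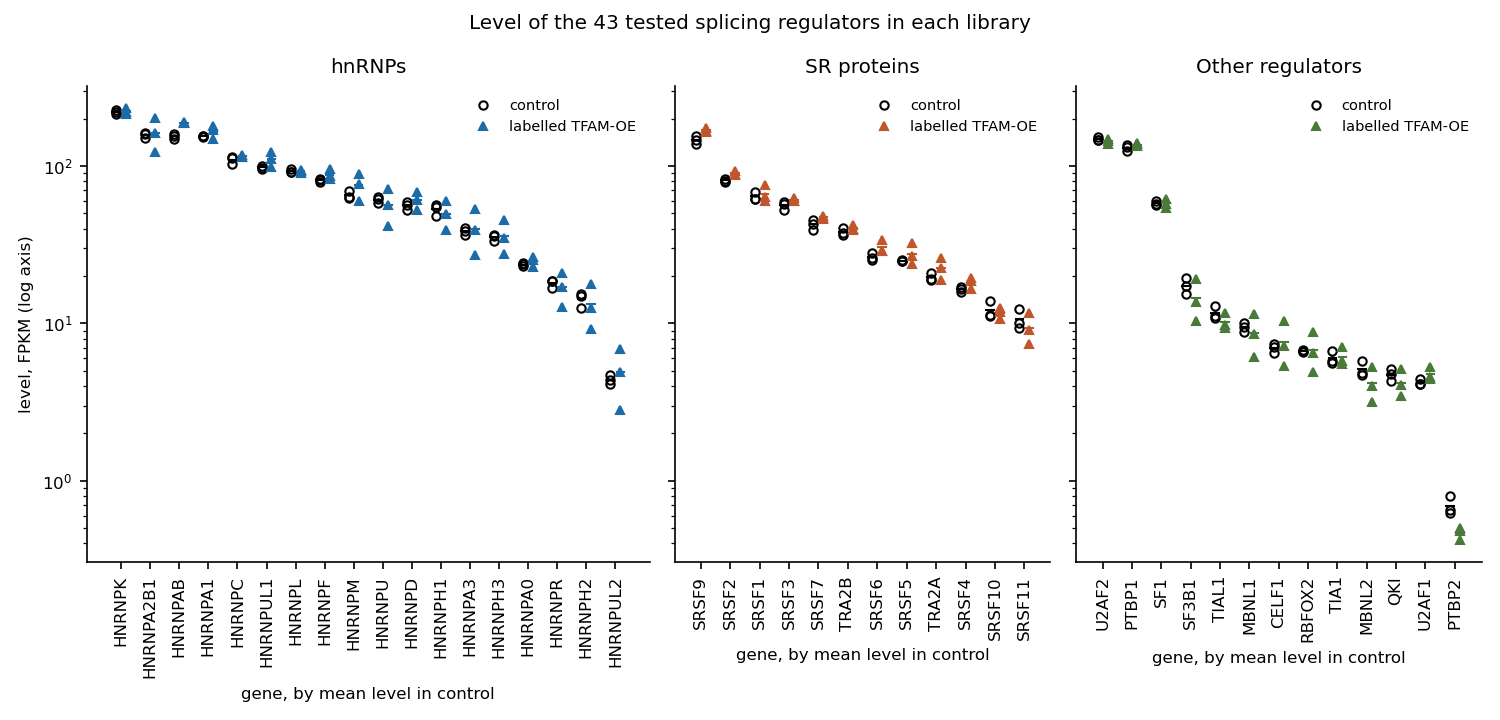
Level in FPKM (log axis) of the 43 tested regulators in each control library (circles) and each library labelled TFAM-OE (triangles), with the mean of each group as a bar. HNRNPK, SRSF9 and U2AF2 lead their classes, PTBP2 lies below 1 FPKM in every library, and ESRP1 and ESRP2 were too low to be drawn.

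Of the 18 hnRNPs, 0 were lower and 0 higher by the adjusted test, 14 of the log2 fold changes were above 0, and the median was 0.08 (range −0.11 to 0.30), beside a median of −0.01 over all genes tested. The largest difference was that of HNRNPAB, an A/B-type hnRNP found in mRNA-editing and mRNA-transport complexes. Its level was 321, 345 and 363 CPM in the control and 442, 429 and 396 CPM in the labelled TFAM-OE libraries. The groups did not overlap, and the log2 fold change of 0.30 (SE 0.0955) missed the adjusted threshold (adjusted p = 0.0817). It passed with DESeq2 (adjusted p = 0.0489), with scaling by library size alone (0.0478) and without the library TFAM-OE 3 (0.0221). Its log2 fold change stayed between 0.26 and 0.35 over 17 alternatives, whose adjusted p ran from 0.0221 to 0.289.

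HNRNPM, which recognises GU-rich motifs, came next. It was at 195, 221 and 202 CPM in the control and at 202, 249.7 and 269.8 CPM in the labelled TFAM-OE libraries. The library TFAM-OE 1 lay among the control and the other two above it (log2 fold change 0.22, SE 0.119, adjusted p = 0.275). The U-like HNRNPUL1 had a log2 fold change of 0.19 and HNRNPUL2 of 0.16. Groups were also apart for HNRNPUL1, and for HNRNPF, HNRNPA1 and HNRNPA0, with log2 fold changes of 0.14, 0.12 and 0.09.

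The 3 hnRNPs of the RT-qPCR assay belong to the H/F family, which binds runs of G (HNRNPH1 and HNRNPF), and to the R/Q family (HNRNPR). HNRNPH1 was at 56.7, 54.7 and 48.1 FPKM in the control and at 39.35, 49.6 and 59.5 FPKM in the labelled TFAM-OE libraries. The lowest and the highest library both belonged to the labelled TFAM-OE group, and the log2 fold change of −0.09 (SE 0.122, adjusted p = 0.697) was within the spread. HNRNPR had the same layout, with 18.6, 18.6 and 16.8 FPKM against 12.8, 17.0 and 20.9 FPKM (log2 fold change −0.08, SE 0.134, adjusted p = 0.756).

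HNRNPF was at 83.1, 78.8 and 81.3 FPKM in the control and at 82.3, 86.4 and 95.9 FPKM in the labelled TFAM-OE libraries. Its groups were apart in TMM-scaled CPM but overlapped in FPKM, which is scaled by the authors' mapped fragments alone, and it did not pass the test (log2 fold change 0.14, SE 0.0861, adjusted p = 0.331). The 95% intervals of the log2 fold change were −0.36 to 0.18 for HNRNPH1, −0.05 to 0.33 for HNRNPF and −0.38 to 0.22 for HNRNPR. None of the 3 passed the adjusted test under any of the 17 alternatives.

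The remaining hnRNPs had log2 fold changes near 0. HNRNPA2B1 (0.05), HNRNPA3 (0.06), HNRNPH3 (0.04) and HNRNPL (0.02), which binds CA repeats, lay just above, with HNRNPC (0.10) and HNRNPD (0.13), regulators of U-rich and AU-rich RNA. HNRNPU (−0.10), a scaffold-attachment protein, and HNRNPH2 (−0.11), the X-linked relative of HNRNPH1, lay below. The summed hnRNP level was 6246 to 6416 CPM in the control and 6276 to 7135 CPM in the labelled TFAM-OE libraries, so the group ranges overlapped.

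The SR proteins were at 10.6 to 147 FPKM in the control, from SRSF11 to SRSF9, a short SR protein. SRSF9 was at 137, 147 and 156 FPKM in the control and at 173, 167 and 165 FPKM in the labelled TFAM-OE libraries. The groups did not overlap in FPKM, but in TMM-scaled CPM the control library 3 (224) was just above the library TFAM-OE 3 (223). The log2 fold change was 0.22 (SE 0.104, adjusted p = 0.211). Of the reference exon bases of SRSF9, 42.6% overlap the gene GATC on the other strand, and whether strand was used in counting is not given in the sources used here.

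Of the 12 SR proteins, 0 were lower and 0 higher by the adjusted test, 10 log2 fold changes were above 0, and the median was 0.16 (range −0.16 to 0.23). The groups did not overlap, with the labelled TFAM-OE libraries higher, for 7 of the 12 SR proteins, beside 15.8% of all genes tested. These were SRSF6 (log2 fold change 0.23), SRSF7 (0.17), SRSF2 (0.17), SRSF5 (0.16), SRSF4 (0.16), SRSF3 (0.14) and TRA2B (0.11). That count depended on the scaling, being 8 with upper-quartile factors, 7 with RLE factors and 5 with library size alone. The shares of all genes tested under these scalings were 16%, 16.3% and 16%. The summed SR level was 1686 to 1780 CPM in the control and 1896 to 1939 CPM in the labelled TFAM-OE libraries. With library size alone the summed level was 1695 to 1829 and 1827 to 2027 CPM, and the groups overlapped.

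SRSF6, an SR protein that promotes exon inclusion and carries an ultraconserved poison exon, had the largest difference of the class. It was at 138, 128 and 136 CPM in the control and at 156, 151 and 165 CPM in the labelled TFAM-OE libraries. The groups did not overlap, and the log2 fold change was 0.23 (SE 0.0891, unadjusted p = 0.0251, adjusted p = 0.133). SRSF6 was higher with an offset for GC content (log2 fold change 0.36, adjusted p = 0.0293), as was TRA2A (0.32, adjusted p = 0.0323). TRA2A had a log2 fold change of 0.22 (adjusted p = 0.237) without that offset. Adjusted p over the 17 alternatives ran from 0.0293 to 0.365 for SRSF6 and from 0.0323 to 0.529 for TRA2A.

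The founding SR protein SRSF1, which binds GA-rich exon elements, differed little (log2 fold change 0.06, 95% interval −0.15 to 0.27). The SR-like SRSF10, a splicing repressor when dephosphorylated, was at −0.04, and SRSF11 was at −0.16 (SE 0.14, adjusted p = 0.512). SRSF11 was the single SR protein whose control libraries and labelled TFAM-OE libraries each spanned more than 0.3 on the log2 scale (0.33 and 0.49).

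Among the other regulators, PTBP2 was the regulator that fell. PTBP2, the neuronal paralogue of the polypyrimidine tract-binding protein PTBP1, is kept low outside neurons because PTBP1 causes its transcript to skip an exon and decay. PTBP2 (chr1:96721665-96823738, plus strand, GRCh38) was counted at 366, 246 and 330 reads in control libraries and at 200, 251 and 205 in the labelled TFAM-OE libraries, or 10.9, 9.19 and 9.01 CPM against 6.28, 6.91 and 6.83 CPM. The groups did not overlap, all 3 labelled TFAM-OE libraries were lower, and the log2 fold change was −0.54 (95% interval −0.85 to −0.23, SE 0.139, adjusted p = 0.043). At 0.62 to 0.80 FPKM in the control and 0.42 to 0.50 FPKM in the labelled TFAM-OE libraries, PTBP2 was the least abundant of the 43 tested regulators.

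The call on PTBP2 was close to the threshold. Over 17 alternatives the log2 fold change was negative throughout (−0.59 to −0.20) and the adjusted p ran from 0.0139 to 0.296, with 7 of the 17 under 0.05. Leaving out any of the 3 control libraries, TFAM-OE 1 or TFAM-OE 2 took the adjusted p to between 0.0585 and 0.176, and leaving out TFAM-OE 3 took it to 0.0262. With an offset for GC content the log2 fold change was −0.38 (adjusted p = 0.0679), and with library size alone it was −0.56 (adjusted p = 0.0567).

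PTBP1 was far more abundant, at 125 to 135 FPKM in the control and 134 to 139 FPKM in the labelled TFAM-OE libraries, and did not pass the test (log2 fold change 0.09, SE 0.0959, adjusted p = 0.59). The ratio of PTBP1 to PTBP2 in FPKM was 157, 202 and 218 in the control and 328, 278 and 278 in the labelled TFAM-OE libraries. The group ranges of the ratio did not overlap, which restates the difference in PTBP2 and is not a separate result.

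The recognition factors of the branch point and the 3′ splice site were led by U2AF2, which binds the polypyrimidine tract. U2AF2 was at 146, 146 and 154 FPKM in the control and at 148, 144 and 138 FPKM in the labelled TFAM-OE libraries, and the groups overlapped (log2 fold change −0.02, SE 0.101, adjusted p = 0.909). SF1, the first factor on the branch point, was also level (0.02), and SF3B1, the largest subunit of the U2 snRNP SF3B complex, was at −0.25 (SE 0.165, adjusted p = 0.369). The small partner U2AF1, which reads the AG of the 3′ splice site, had 245 to 367 reads per control library and 280 to 392 in the labelled TFAM-OE libraries (log2 fold change 0.19, adjusted p = 0.429). Of the 100-base stretches of its reference transcript, 98.6% occur also in a second copy of the gene, so a count of uniquely mapped reads understates U2AF1. That second copy itself had 3 to 14 reads per library.

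MBNL2, a muscleblind protein that binds YGCY motifs, had the largest difference of the class after PTBP2. It was at 31.8, 27.8 and 27.3 CPM in the control and at 19.3, 23.5 and 28.7 CPM in the labelled TFAM-OE libraries. The library TFAM-OE 3 lay among the control and the other two below it (log2 fold change −0.28, SE 0.15, adjusted p = 0.269). Without TFAM-OE 3, MBNL2 was lower (−0.43, adjusted p = 0.0335) and so was SF3B1 (−0.46, adjusted p = 0.0186), and without TFAM-OE 1 they were at −0.15 (adjusted p = 0.516) and −0.09 (adjusted p = 0.715). Adjusted p over the 17 alternatives ran from 0.0335 to 0.609 for MBNL2 and from 0.0186 to 0.715 for SF3B1.

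The other widely expressed switches did not pass the test. QKI and TIAL1 were at −0.16 and −0.15, MBNL1 at −0.11, RBFOX2, which binds GCAUG, at 0.03, TIA1 at 0.04 and CELF1, an antagonist of the muscleblind proteins, at 0.13. The epithelial regulators were near 0 reads in these epithelial cancer cells. ESRP1 had 0, 0 and 5 reads in control libraries and 2, 1 and 0 in the labelled TFAM-OE libraries, and ESRP2 had 4, 5 and 3 against 4, 8 and 6 reads. Both stayed below the filter on low counts and were not tested. The class as a whole summed to 1927 to 2004 CPM in the control and 1925 to 2006 CPM in the labelled TFAM-OE libraries.

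The labelled TFAM-OE libraries were less alike than the control libraries for most regulators, as they were for most genes tested. The range on the log2 scale was wider in that group for 31 of 43 regulators (72.1%), beside 62.2% of all genes tested and 68.4% of genes with at least 500 reads on average. Among the hnRNPs it was wider for 16 of 18, among the SR proteins for 6 of 12 and among the other regulators for 9 of 13. TFAM-OE 3 was above TFAM-OE 1 for 31 of the 43 regulators, beside 46.9% of all genes tested and 41.8% of genes with at least 500 reads. TFAM-OE 1 was the lowest of all 6 libraries for 17 regulators (39.5%, beside 26.6% of all genes tested), TFAM-OE 3 the highest for 20 (46.5%, beside 21.9%), and both held for 11 (25.6%, beside 10.5%). Among genes with at least 500 reads the same shares were 26.6%, 23.8% and 13.1%. Of those 11 regulators, 8 were hnRNPs, 0 were SR proteins and 3 were other regulators.

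HNRNPUL2, which was chosen after its values were seen, had the widest gap. Relative to the control mean, it was at −0.53, 0.21 and 0.58 on the log2 scale in TFAM-OE 1, 2 and 3. HNRNPA3 and HNRNPH2 followed, with TFAM-OE 3 exceeding TFAM-OE 1 by 0.82 and 0.81, then CELF1 (0.79), MBNL1 (0.76), SF3B1 (0.73), RBFOX2 (0.71) and HNRNPU (0.63). The gap was −0.38 for U2AF1 and between −0.25 and −0.20 for U2AF2, HNRNPL, SRSF9 and HNRNPC. It stayed within 0.1 of 0 for HNRNPK, SF1, HNRNPF, HNRNPA0, SRSF2, SRSF3, TRA2B, SRSF4, SRSF6 and SRSF10.

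**Figure D3:**
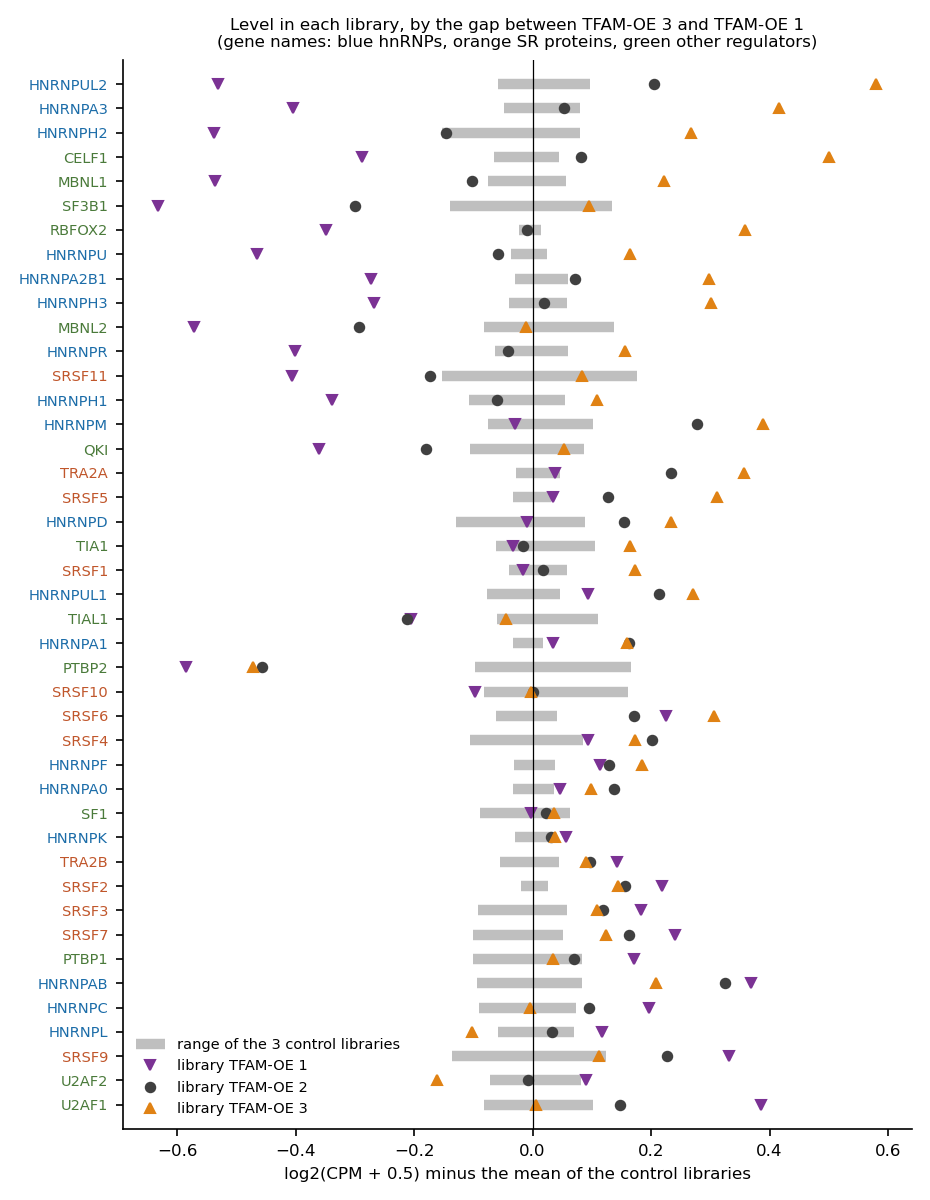
Log2 level of each tested regulator relative to the mean of the control libraries, in the 3 labelled TFAM-OE libraries (symbols), with the range of the control libraries in grey. Regulators are ordered by TFAM-OE 3 minus TFAM-OE 1, from −0.38 for U2AF1 to 1.11 for HNRNPUL2, and PTBP2 has all 3 symbols left of its grey bar.

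The gap between these libraries went with properties of the transcripts. Across the 43 regulators, TFAM-OE 3 minus TFAM-OE 1 had a Spearman correlation of −0.36 with the GC content and of 0.51 with the length of the reference transcript. Across all genes tested the values were −0.41 and 0.51, and across genes with at least 500 reads −0.49 and 0.67. These points share the same pair of libraries, and genes are not independent replicates. The log2 fold change between the groups had a correlation of 0.46 with GC content and −0.44 with length across the regulators, beside 0.26 and −0.13 across all genes tested. With an offset for GC content, PTBP2 went from a log2 fold change of −0.54 (adjusted p = 0.043) to −0.38 (adjusted p = 0.0679), and SRSF6 and TRA2A passed the test. The part of transcript length was not tested.

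**Figure D4:**
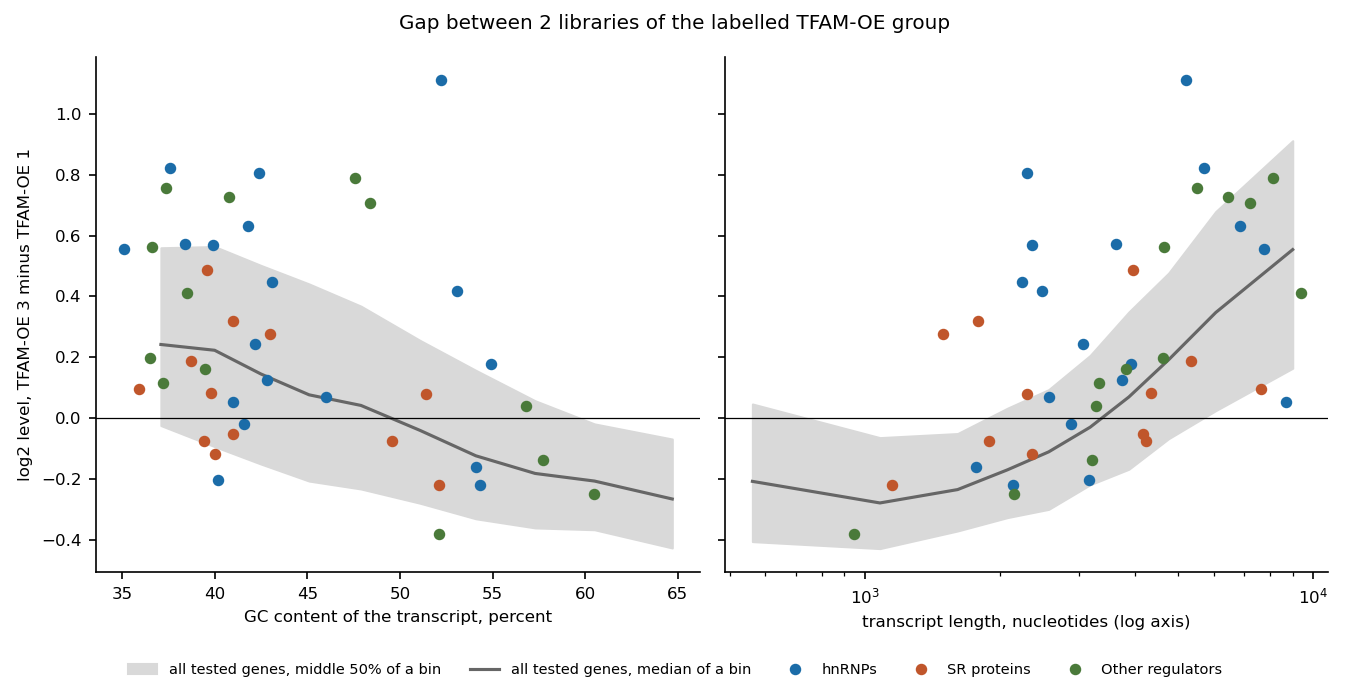
Log2 level in TFAM-OE 3 minus TFAM-OE 1 against the GC content (left) and the length (right, log axis) of the reference transcript, for the regulators (points) and for 10 bins of all genes tested (line, median, and band, middle 50%). Regulators with long transcripts of low GC content lie mostly above 0, as the line for all genes does.

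Some regulators share sequence or exon bases with another gene, so their counts could hold reads of that gene or miss reads of their own. HNRNPUL2 shares 44.8% of its 100-base stretches with the readthrough transcript HNRNPUL2-BSCL2, whose own count was 341% of that of HNRNPUL2. The shares were 28.9% for HNRNPL, 27.1% for HNRNPA1, 26.7% for SRSF1, 14.5% for SRSF6, 12.2% for HNRNPA3, 12.1% for HNRNPH2, 5.02% for HNRNPC and 2.47% for TIA1. The 17 HNRNPA1 pseudogenes with a row together held 1.77% as many reads as HNRNPA1. On the other strand, NFE2L2 covers 59.8% of the exon bases of HNRNPA3 and MFSD11 30.1% of those of SRSF2. Whether this sharing moves the differences between the groups was not tested.

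The other genes of the splicing pathway, in 8 lists, had 6 lower and 2 higher genes among 172 tested. These shares of 3.49% and 1.16% were below the 4.81% and 3.48% of all tested genes, so nothing is read from the counts of single lists. Among the SR-related proteins beyond the 12, 2 of 25 tested were lower and 0 higher, with a median log2 fold change of −0.24. These were PNN (−1.04, adjusted p = 0.0369), which sits on the exon junction complex, and ACIN1 (−0.45, adjusted p = 0.0447), an apoptosis-linked partner of the same complex. Of 10 kinases and import factors of SR proteins, 0 were lower or higher, and the median was −0.19. The kinases CLK4 (−0.69, adjusted p = 0.0575) and CLK1 (−0.57, adjusted p = 0.0556), which phosphorylate SR proteins, were just outside the threshold.

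The counts of the next lists stand beside 4.81% lower and 3.48% higher over all genes tested. Among 25 genes of the U1 and U2 snRNPs and the branch point, 0 were lower and 2 higher. These were SF3A2 (0.43, adjusted p = 0.0361), a subunit of the U2 snRNP, and SNRNP70 (0.42, adjusted p = 0.0187), the U1-70K protein that SR proteins contact at the 5′ splice site. Of 44 genes of the Sm ring, the tri-snRNP and the Prp19 complex, 2 were lower, SNW1 (−0.41, adjusted p = 0.0244) and PRPF3 (−0.40, adjusted p = 0.0306). Of 15 genes of nonsense-mediated decay and the exon junction complex, 2 were lower, UPF3B (−0.52, adjusted p = 0.0472) and SMG9 (−0.39, adjusted p = 0.0497), and the median was −0.17. None of the 12 further hnRNPs, the 33 further widely expressed regulators and the 8 tested neural and muscle regulators were lower or higher. Of the 16 neural and muscle genes with a row, 14 averaged below 1 FPKM.

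**Figure D5:**
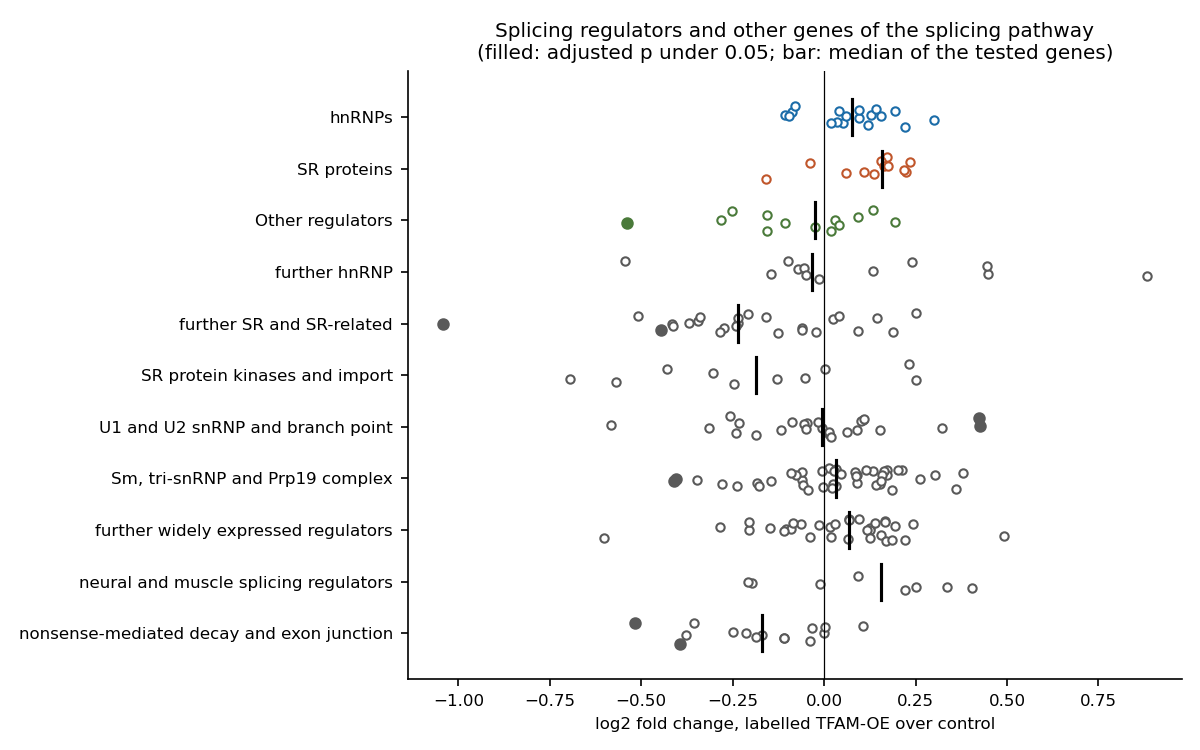
Log2 fold change, labelled TFAM-OE libraries over control, of the 3 classes of regulators (coloured) and of 8 further lists of splicing genes (grey), 1 point per tested gene. Filled points are past an adjusted p of 0.05, and the bars are medians, which run from −0.24 for further SR-related proteins to 0.16 for the SR proteins.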

How the data were processed

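RNA-seq of A549 cells gave 6 libraries, 3 per group, grouped by their labels. After trimming and alignment to GRCh38 by TopHat2, the authors counted the uniquely mapped reads of each gene and computed FPKM. They deposited a raw read count and an FPKM value (2 tables) for each gene and library. The library kit keeps strand, but the counting program, its use of strand and the annotation are details not given in the sources used here. Unused count columns numbered 0. bcl2fastq, TopHat2 and edgeR are named in the submitters' processing notes.

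Regulators were matched by gene symbol, and all 45 had a row. Genes kept by filterByExpr (16555) were compared by a two-sided quasi-likelihood test (edgeR 4.0.16 in R 4.3.3) on TMM-scaled counts, unpaired, and p-values were adjusted over all of them by the Benjamini-Hochberg method. A positive fold change means a higher level in the labelled TFAM-OE group. It is given with standard errors and 95% intervals from the fit. Group ranges were compared in TMM-scaled CPM, log2 levels used CPM + 0.5, and levels of different genes were compared in FPKM as deposited. Limits on uniqueness were computed from 100-base stretches of the Ensembl canonical transcripts of GENCODE release 44. Of the tested genes, 98.7% had a GC content. The count test was tested on simulated data, where it recovered 26% of 50 genes changed 1.5-fold and 78% of 50 changed 2-fold. It recovered 96% of those changed 4-fold and 98% of those changed 8-fold. Of all its calls there, 7.45% were false, so small changes of the regulators could be missed.

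The regulators and lists were chosen with earlier results of these data known. Values in every library are given for regulators past an adjusted p of 0.05, the most abundant of each class by FPKM, the 2 of each class with the largest absolute log2 fold change, and the 3 taken to RT-qPCR. Of each further list, at most 2 genes past the test were named in each direction. CLK1, CLK4, U2AF1, ESRP1, ESRP2, HNRNPUL2 and PTBP1 were given values outside that rule, after their values were seen. Alternatives were DESeq2 (1.42.0), limma-voom and limma-trend on FPKM with 0.1 or 1 added (limma 3.58.1), other scalings and filters, a replicate block, a GC offset, a 2-fold threshold and leaving out each library. The depth limits counting error only, since reads carry no molecular identifiers, and the spread of 3 cultures per group sets the precision. Figures were drawn with matplotlib (3.10.9).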

Additional observations from a re-analysis of the deposited data

How the results depend on the processing

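The counts of regulators past the adjusted test were small and moved by a few genes. Higher hnRNPs numbered 1 in place of 0 with DESeq2 and with library size alone (HNRNPAB), and 0 to 1 when 1 library was left out. Higher SR proteins numbered 2 with the GC offset (SRSF6 and TRA2A). Lower regulators of the third class numbered 0 in place of 1 with library size alone, both FPKM fits, the replicate block and the GC offset, and 0 to 3 when 1 library was left out, the 3 (PTBP2, MBNL2 and SF3B1) being without TFAM-OE 3. In the other pathway lists, lower genes (6) numbered 11 with DESeq2, 16 with every gene that had a read, 0 with either FPKM fit, 0 with the replicate block, 13 with the GC offset and 0 to 26 with 1 library left out. Higher genes (2) numbered 5, 6, 1, 0, 4 and 0 to 9 under the same alternatives, and the 26 and the 9 were without TFAM-OE 3. The cause was not tested. No regulator passed 2-fold under any alternative, and no called value changed sign. Of 153 values of the 9 called genes under alternatives, 81 stayed past the threshold and 72 did not. Of 714 values of the 42 regulators not called, 7 passed it. Over all genes, 796 lower and 576 higher became 285 and 74 with the replicate block, 293 and 160 (0.1 added) or 261 and 148 (1 added) with FPKM, 1485 and 1034 with every gene that had a read, 1106 and 934 with DESeq2, 252 and 90 without control 1, 240 and 66 without control 2, 262 and 89 without TFAM-OE 2, and 1786 and 1428 without TFAM-OE 3. Deviations of same-numbered libraries from their group means had correlations of −0.303, 0.0362 and −0.358. Control 3 with TFAM-OE 1 was at 0.338 and control 1 with TFAM-OE 3 at 0.337. Deviations from a mean of 3 libraries constrain each other, so these values do not settle whether the numbers pair the libraries. PTBP2 had an adjusted p of 0.157 in the replicate block. ESRP1 and ESRP2 had too few reads to be tested.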

Other observations

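Paralogue balances among the regulators gave further values, as ratios of FPKM. MBNL1 over MBNL2, muscleblind proteins with the same binding motif, was 1.76, 1.96 and 1.87 in the control and 1.92, 2.13 and 2.18 in the labelled TFAM-OE libraries, and the groups overlapped. TRA2B over TRA2A, the transformer-2 pair, was 1.94, 1.89 and 1.99 against 2.09, 1.76 and 1.61, also with overlap. HNRNPH1 over HNRNPH2 was 3.68, 3.65 and 3.85 against 4.30, 3.96 and 3.33, and in the labelled TFAM-OE libraries this ratio was highest in TFAM-OE 1 and lowest in TFAM-OE 3. U2AF2 over U2AF1 was 35.5, 35.5 and 34.5 against 28.3, 31.5 and 31.3 with no overlap, and it carries the limit of the second U2AF1 copy. These ratios were not tested.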
